A study of Mus musculus with 8 samples.

Results

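The genes described here are 36 listed genes of glucose uptake, glycolysis, lactate handling and the response to low oxygen. They were followed across 8 Illumina mouse bead arrays of embryonic hearts and epicardial cultures. The list was defined by gene name, and a gene was represented by the probe that was brightest on average in the non-normalized intensities. Of the 36 genes, 33 had a probe that names a single gene, among 19057 such genes on the array. Hk2, Gpi1 and Eno1 were not analysed here, and Ero1l was found under its current symbol Ero1a. A detection p-value under 0.01 was reached on at least 1 array by 29 of the 33 genes and on all 8 arrays by 21. Slc16a1, Pfkfb3, Bnip3 and Ero1a did not reach it on any array, so nothing is said of their changes.

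All samples came from E12.5 mouse embryos whose strain is given as mixed C57. The epicardium covers the surface of the heart, and cells of it spread onto the dish when a heart is explanted. Control hearts were wild type. Knockout hearts lacked both PDGF receptors, a and b, in an epicardium-specific deletion whose driver the labels do not name. Both were pools of 3 hearts taken without the conotruncal region. For the 6 epicardial cultures, hearts were removed after 3 days of outgrowth and the cells stayed in culture for 2 more, and at least 3 cultures went into each pool. They were a wild type control culture, a receptor knockout culture and wild type cultures given 20 ng/ml PDGF-BB for the last 12 h or 24 h. A vehicle culture received no growth factor over the 2 days, and a 3-factor culture received PDGF-BB at 20 ng/ml together with TGF-β1 at 10 ng/ml and bFGF at 25 ng/ml over the same 2 days. The control culture is also labelled as given vehicle, so both are called cultures without growth factors below. Every group was 1 array, so differences between 2 arrays carry no replicate error and no p-value.

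Glycolysis splits glucose into pyruvate in the cytosol, and lactate dehydrogenase and pyruvate dehydrogenase kinase steer that pyruvate towards lactate or away from mitochondria. When oxygen is scarce, prolyl hydroxylases of the Egln family stop marking the α subunit of hypoxia-inducible factor (HIF) for destruction. HIF then raises transcription of glycolytic genes, of Vegfa and of several of its own regulators. The embryonic heart develops at low oxygen and relies on glycolysis before its mitochondria mature.

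HIF binds DNA at a short core, ACGTG or GCGTG, and start-site windows are shown for the genes that carry the main culture results below. These differed by at least 1 log2 unit with detection on the brighter array (the rule of size), either between a culture and the culture without growth factors of its own array set, or between the 2 cultures without growth factors. Genes that passed only in other pairs of cultures, such as Eno2, whose window held no match, are not shown. The sequences are from RefSeq on GRCm38.p6, from upstream of the annotated start to shortly after it, written 5′ to 3′ in the direction of the gene. Capitals mark every match to ACGTG or GCGTG on either strand, so CACGT and CACGC are the same cores read from the other strand, and matches that overlap were counted as 1 place.
Egln3 (chr12:54203825-54204124, minus strand): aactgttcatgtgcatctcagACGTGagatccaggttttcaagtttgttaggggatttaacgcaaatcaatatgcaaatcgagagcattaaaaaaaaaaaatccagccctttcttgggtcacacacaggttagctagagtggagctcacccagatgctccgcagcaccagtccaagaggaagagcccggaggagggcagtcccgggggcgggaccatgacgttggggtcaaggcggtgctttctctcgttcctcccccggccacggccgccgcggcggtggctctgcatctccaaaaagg
Adm (chr7:110627407-110627706, plus strand): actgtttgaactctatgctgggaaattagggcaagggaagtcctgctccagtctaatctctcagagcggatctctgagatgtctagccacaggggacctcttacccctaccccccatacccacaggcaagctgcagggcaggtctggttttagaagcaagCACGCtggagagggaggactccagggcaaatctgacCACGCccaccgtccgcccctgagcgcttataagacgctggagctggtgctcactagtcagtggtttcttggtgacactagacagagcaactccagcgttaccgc
Aldoc (chr11:78322823-78323122, plus strand): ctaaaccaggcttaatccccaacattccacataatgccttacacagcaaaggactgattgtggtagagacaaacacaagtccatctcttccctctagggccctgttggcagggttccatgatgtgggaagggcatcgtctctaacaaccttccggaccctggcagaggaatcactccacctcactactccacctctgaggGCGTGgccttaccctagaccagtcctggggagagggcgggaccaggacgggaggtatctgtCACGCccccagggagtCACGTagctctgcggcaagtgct
Ankrd37 (chr8:45999801-46000100, minus strand): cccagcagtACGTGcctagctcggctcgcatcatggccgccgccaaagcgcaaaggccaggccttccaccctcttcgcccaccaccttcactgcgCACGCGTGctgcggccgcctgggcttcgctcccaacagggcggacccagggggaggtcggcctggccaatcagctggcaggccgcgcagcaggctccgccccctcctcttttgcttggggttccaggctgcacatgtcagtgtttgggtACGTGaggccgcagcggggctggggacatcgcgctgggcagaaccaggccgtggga
Pfkl (chr10:78009758-78010057, minus strand): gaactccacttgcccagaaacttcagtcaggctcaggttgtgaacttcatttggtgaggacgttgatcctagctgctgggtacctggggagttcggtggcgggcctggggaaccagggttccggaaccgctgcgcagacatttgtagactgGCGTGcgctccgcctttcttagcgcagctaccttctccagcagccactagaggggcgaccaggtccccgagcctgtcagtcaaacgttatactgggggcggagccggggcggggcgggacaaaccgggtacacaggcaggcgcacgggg
Egln3 and Pfkl held 1 place each, Adm 2, and Aldoc and Ankrd37 3 each. No window was at hand for Bnip3l. Among the listed genes, 27 of the 29 with a window held at least 1 match (93.1%), and Eno2 and Tpi1 held none. The same letters occurred in 12628 of 27025 genes of the RefSeq table (46.7%). The genes' windows were also richer in G and C, with a median of 62.2% against 52.7% over all windows, and the part of base composition in the difference was not tested. A match is a description of the letters and not a bound site.

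The labels were checked first. Pdgfra had a log2 level of 7.43 in control and 5.80 in knockout hearts. In culture it had 11.61 in the control and 10.49 in the knockout culture. The other wild type cultures had 11.08 and 10.95 with PDGF-BB for 12 h and 24 h, but 10.21 with vehicle and 8.47 with the 3 factors. The Pdgfra level therefore did not set the knockout culture apart. Pdgfrb lay at 5.62 in control hearts and was not detected in knockout hearts. It lay at 6.12 in the control, 5.85 in the knockout culture and 6.13 to 6.99 in the other cultures. The position of either probe relative to the deletion was not determined. All 23 cardiomyocyte markers were detected in both hearts. The log2 of their summed linear levels, called the summed log2 level below, was 17.99 and 18.06 there against 14.23 to 15.19 in the cultures. The brightest genes set such a sum. In the cultures the brightest was Tpm1, which went the other way, with 10.72 and 10.51 in hearts and 13.65 to 14.93 in cultures. The median difference of the list was -6.58 for the vehicle culture against control hearts. Epicardial markers summed to 12.97 to 15.35 in the cultures and to 12.19 to 12.21 in the hearts. Macrophage markers were abundant in every culture, with a summed log2 level of 15.21 to 16.97 against 12.78 to 12.87 in the hearts. The control and knockout cultures, whose source label names hearts, held the cultures' levels of all 3 lists. The 2 sets of arrays differed in scale before normalization. In the authors' processing, set 1 held the vehicle and 3-factor cultures together with both hearts, and set 2 held the other cultures.

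Most of the listed glycolytic genes were higher in hearts than in cultures, while a few HIF targets were higher in cultures. Both hearts lay above all 6 cultures for 16 of the 29 detected genes, which is the case for 26.9% of all 10719 detected genes. They lay below all 6 cultures for 3 of the 29, against 25.3% of all genes. A gene above had to be detected in both hearts, and a gene below in all 6 cultures. Adm also lay below but was not detected in the 3-factor culture, so it is not counted. The genes above were 6 of 7 in upper glycolysis, 3 of 5 in lower glycolysis, 4 of 4 in lactate and pyruvate handling, 1 of 2 glucose transporters and 2 of 4 HIF and sensor genes. None of the 7 remaining HIF targets was among them, and the 3 genes below (Vegfa, Ndrg1 and P4ha1) all came from that group. In bulk RNA, fewer cells of a type and less RNA per cell cannot be told apart, so these levels mix cell makeup with expression.

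**Figure D1:**
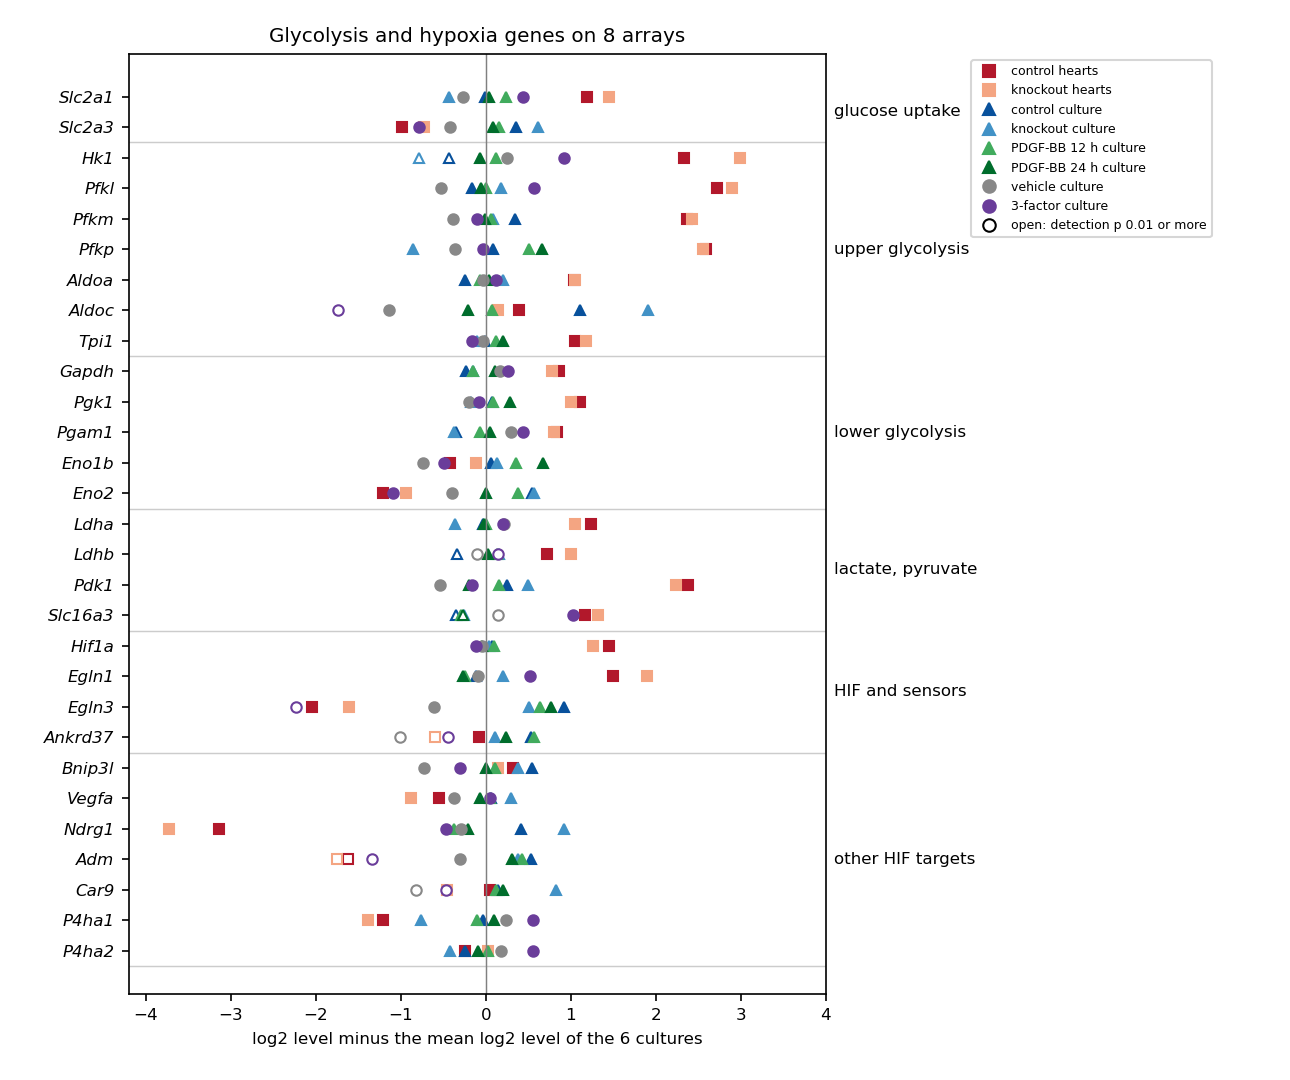
Log2 level of the 29 detected genes on each of the 8 arrays, drawn as the difference from the mean of the 6 cultures, with squares for hearts, triangles for cultures of set 2, circles for cultures of set 1 and open symbols where the gene was not detected. Both hearts sit to the right of every culture for 16 genes, and to the left of every culture for Vegfa, Ndrg1, P4ha1 and Adm, the last not detected in hearts or in the 3-factor culture.

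The phosphofructokinases, which commit sugar to glycolysis, showed wide gaps between tissues. Pfkl, the liver-type subunit, had log2 levels of 12.42 and 12.60 in control and knockout hearts, 9.54 and 9.88 in the control and knockout cultures, 9.69 and 9.64 with PDGF-BB for 12 h and 24 h, 9.17 in the vehicle culture and 10.26 in the 3-factor culture. Pfkm, the muscle-type subunit, lay at 11.67 and 11.73 in hearts and between 8.92 and 9.65 in cultures. Pfkp, the platelet-type subunit, lay at 11.27 and 11.24 in hearts and between 7.82 and 9.35 in cultures. For none of the 3 did hearts and cultures overlap. A limma fit with tissue and array set as terms had both genotypes and all treatments in its spread. Both hearts are in set 1, so its fitted gap sets the hearts against the 2 set 1 cultures alone, vehicle and 3-factor. It gave hearts higher by 2.79 ± 0.31 (SE) for Pfkl (adjusted p = 0.000215) and by 2.77 ± 0.44 for Pfkp (adjusted p = 0.00138). A second probe of Pfkp kept the order, at 9.02 and 9.31 in hearts and 5.30 to 7.02 in cultures. The second Pfkl probe was dim, at 6.03 and 6.15 in hearts and 4.94 to 5.84 in cultures, and differed far less.

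That fit put 18 of the 29 genes past an adjusted p of 0.05, 15 higher in hearts and 3 lower, where 46.1% of all 10719 genes passed. The count stands beside that broad difference between hearts and the set 1 cultures. Hexokinase Hk1, which traps glucose in the cell, had 7.85 and 8.51 in hearts and 4.73 to 6.45 in cultures, and was not detected in the control and knockout cultures. Its second probe had 7.90 and 8.25 in hearts and 5.05 to 5.68 in cultures. Slc2a1, the main basal glucose transporter, had 11.95 and 12.21 in hearts and 10.33 to 11.20 in cultures (1.24 ± 0.28, adjusted p = 0.00818). Slc2a3, a high-affinity glucose transporter, was higher in 5 of the 6 cultures than in either heart. It had 9.15 and 9.41 in hearts, 10.23 to 10.75 in the 4 cultures of set 2, 9.71 in the vehicle culture and 9.35 in the 3-factor culture, which lay between the hearts.

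Enzymes of the middle and end of the pathway differed by about 1 log2 unit. Aldoa, the aldolase of muscle, had 13.13 and 13.14 in hearts and 11.84 to 12.28 in cultures. Triose phosphate isomerase Tpi1 had 13.97 and 14.10 against 12.76 to 13.11, and the ATP-forming phosphoglycerate kinase Pgk1 12.02 and 11.92 against 10.72 to 11.20. Gapdh, often used as a reference gene, lay at 13.95 and 13.87 in hearts and at 12.86 to 13.35 in cultures. Its fitted difference of 0.61 ± 0.16 passed the test (adjusted p = 0.0139). Phosphoglycerate mutase Pgam1 had 10.40 and 10.36 in hearts and 9.19 to 10.00 in cultures, with an adjusted p of 0.0738 beside the set term and 0.0176 without it. Eno2, the enolase best known from neurons, was at 7.62 and 7.88 in hearts. Among cultures it ranged from 7.73 with the 3 factors to 9.39 in the knockout culture, so its groups overlap. Eno1b, whose sequence is nearly the same as Eno1 and whose signal is therefore uncertain, ranged from 5.56 to 6.97 in cultures around 5.87 and 6.18 in hearts.

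Lactate and pyruvate genes followed the enzymes. Ldha, the dehydrogenase subunit that favours lactate, had 13.94 and 13.75 in hearts and 12.34 to 12.92 in cultures. Ldhb, the heart-type subunit, had 5.99 and 6.27 in hearts and was detected in 3 of the cultures, at 5.29 to 5.41. Pdk1, which shuts pyruvate out of the mitochondrial dehydrogenase, had 9.82 and 9.68 in hearts and 6.90 to 7.94 in cultures. Its fitted gap was 2.66 ± 0.24 (adjusted p = 5.97e-05). The lactate exporter Slc16a3 had 6.03 and 6.17 in hearts and was detected in a single culture, the 3-factor culture, at 5.89.

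HIF and its sensors split. Hif1a, the oxygen-labile subunit, had 9.14 and 8.95 in hearts and stayed within 7.57 to 7.78 in all cultures, with a fitted gap of 1.44 ± 0.14 (adjusted p = 9.80e-05). Egln1, the main prolyl hydroxylase for HIF, had 7.47 and 7.88 in hearts and 5.71 to 6.50 in cultures, and its 2 other probes kept the same order of hearts above cultures. Egln3, the family member that HIF itself induces, had 5.74 and 6.17 in hearts, 8.70 and 8.29 in the control and knockout cultures, 8.42 and 8.54 with PDGF-BB for 12 h and 24 h, 7.18 in the vehicle culture and 5.54 without detection in the 3-factor culture. Hearts lay below 5 of the 6 cultures. The test with a set term, against the vehicle and 3-factor cultures alone, did not pass (-0.41 ± 0.45, adjusted p = 0.496).

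Ndrg1, a stress-responsive gene linked to differentiation, showed the widest tissue gap among the HIF targets. It had 6.81 and 6.22 in hearts, 10.37 and 10.87 in the control and knockout cultures, 9.58 and 9.75 with PDGF-BB for 12 h and 24 h, 9.65 in the vehicle culture and 9.49 in the 3-factor culture. Hearts and cultures did not overlap, and hearts were lower by a fitted -3.06 ± 0.41 (adjusted p = 0.000564). P4ha1, a collagen prolyl hydroxylase, had 7.49 and 7.32 in hearts and 7.94 to 9.26 in cultures (-1.69 ± 0.28, adjusted p = 0.00159). The vasodilator peptide gene Adm was not detected in either heart and was detected in 5 cultures, at 5.91 to 6.75 (adjusted p = 0.0415). Vegfa, the endothelial growth factor, had 8.49 and 8.16 in hearts and 8.66 to 9.33 in cultures, with an adjusted p of 0.0591 beside the set term and 0.0127 without it. Bnip3l, a mitophagy receptor, overlapped, with both hearts inside the culture range of 9.96 to 11.23. Its fitted difference was 0.74 ± 0.23 (adjusted p = 0.0271) with the set term, against the set 1 cultures alone. Without that term, against all cultures, it was 0.23 ± 0.31 (adjusted p = 0.567). P4ha2 ranged from 9.43 to 10.40 in cultures around 9.61 and 9.88 in hearts.

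Within set 1, the vehicle culture was compared with control hearts. In this pair 4 genes rose in culture and 15 fell of 29 measured, where 31.1% of all 9656 measured genes passed the rule of size, 16.1% higher and 15% lower. A gene was measured where it was detected on at least 1 of the 2 arrays, and passed the rule of size where it also differed by at least 1 log2 unit and was detected on the brighter array. Only genes that passed are said to have risen or fallen. All 7 upper glycolysis genes fell, from -1.08 for Aldoa to -3.25 for Pfkl, and the median of the 29 genes was -1.02 against 0.04 for all genes. Ndrg1 (2.85), P4ha1 (1.45), Egln3 (1.44) and Adm (at least 1.35-fold higher) rose. The control culture, set against the same control hearts from the other array set, gave 6 higher and 16 lower of 29 measured, where 36.6% of all genes passed (20.2% higher, 16.5% lower), and a median of -1.07. Aldoc fell by 1.53 in the vehicle culture but had 0.71 in the control culture, and Bnip3l fell by 1.04 against 0.23.

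Other genes of the pathways moved between the same arrays. Of 17 further glycolysis and glycogen genes measured, 4 rose and 8 fell in the vehicle culture. Those that rose were Hk3 (at least 6.415-fold), Adpgk (1.445), Slc2a10 (1.41) and Pfkfb4 (1.08). The muscle-type enzymes Pgam2 fell by 4.88 and Eno3 fell by 3.73, and the insulin-responsive glucose transporter Slc2a4 and the muscle glycogen phosphorylase Pygm were at least 4.24-fold and 7.73-fold lower. Among 8 pyruvate dehydrogenase and carrier genes 5 fell and none rose, led by Pdhb, a dehydrogenase subunit, at -2.16. Among 10 further HIF pathway genes 4 fell and none rose. One was Hif3a, a HIF subunit that can act as an inhibitor, whose brightest probe had 10.05 in control hearts and was not detected in the vehicle culture. Of 30 further HIF targets 9 rose and 4 fell, with the collagen crosslinker Lox at 5.55, Hmox1, which degrades haem, at 3.77 and Tgfb3 at 3.54. None of 5 pentose phosphate genes passed. Across the same 2 arrays 20 of 23 cardiomyocyte markers and 13 of 13 endothelial markers fell, and 14 of 16 macrophage markers rose. The part of these cells in the gene levels was not tested.

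The 2 cultures without growth factors, which lie in different array sets, differed by the rule of size in 4 listed genes. Among 27 measured genes 4 fell in the vehicle culture against the control culture and none rose, where 10.7% of all 9760 measured genes passed the rule, 7.34% lower and 3.37% higher. The 27 genes had a median of -0.44, and 19 of them lay below 0, against a median of 0.01 for all genes.

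Aldoc, the aldolase of brain, had 7.10 and 6.85 in control and knockout hearts, 7.82 and 8.62 in the control and knockout cultures, 6.78 and 6.50 with PDGF-BB for 12 h and 24 h, 5.57 in the vehicle culture and 4.97 without detection in the 3-factor culture. It fell by 2.25 between the cultures without growth factors, and both set 1 cultures lay below every other array. The other Aldoc probe was not detected on any array. Egln3 fell by 1.53, and its other probes were not detected on any array, so either gene rests on 1 probe. Ankrd37, a small HIF-induced ankyrin protein, had 5.56 in control hearts, 6.17 and 5.75 in the control and knockout cultures and 6.21 and 5.88 with PDGF-BB for 12 h and 24 h. It was not detected in knockout hearts or in either set 1 culture, and was at least 1.69-fold lower in the vehicle culture than in the control culture. Bnip3l fell by 1.27, from 11.23 to 9.96. The further HIF targets did not share one direction, with 2 higher and 4 lower of 30 measured, 14 above 0 and 16 below, and a median of -0.04. Angptl4, an inhibitor of lipoprotein lipase, was higher by 2.28, while the secreted glycoprotein gene Stc1 fell by 1.82, the cell cycle regulator Ccng2 fell by 1.37 and Narf fell by 1.28. Of 15 further glycolysis genes 1 fell, the liver glycogen phosphorylase Pygl (-1.37), and none of 7 pyruvate genes passed. Rpe, 1 of 5 pentose phosphate genes, was at least 2.94-fold lower, and Vhl, which marks HIF for destruction and was 1 of 10 further HIF pathway genes, at least 1.41-fold lower.

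The array set term of the limma fit gave a like grouping across all 6 cultures. It passed an adjusted p of 0.05 for 10 of 29 genes, where 14.6% of all 10719 genes passed. Higher in set 2 were Adm, Aldoc, Ankrd37, Bnip3l, Car9, Egln3, Eno1b, Eno2 and Slc2a3, and lower was Slc16a3. Egln3 and Aldoc had the widest set terms, 2.13 ± 0.39 (adjusted p = 0.0141) and 2.16 ± 0.54 (adjusted p = 0.0363). The 2 hearts are both in set 1, so the set term comes from the cultures alone, and it cannot be told apart from the vehicle and 3-factor treatments of 2 days. Between the cultures without growth factors, 5 of 6 erythroid markers were higher in the vehicle culture, with a summed log2 level of 13.99 against 10.69. Macrophage markers were lower there, 7 of 17 past the rule, with 15.21 against 16.48. Their part in the 4 genes was not tested.

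**Figure D2:**
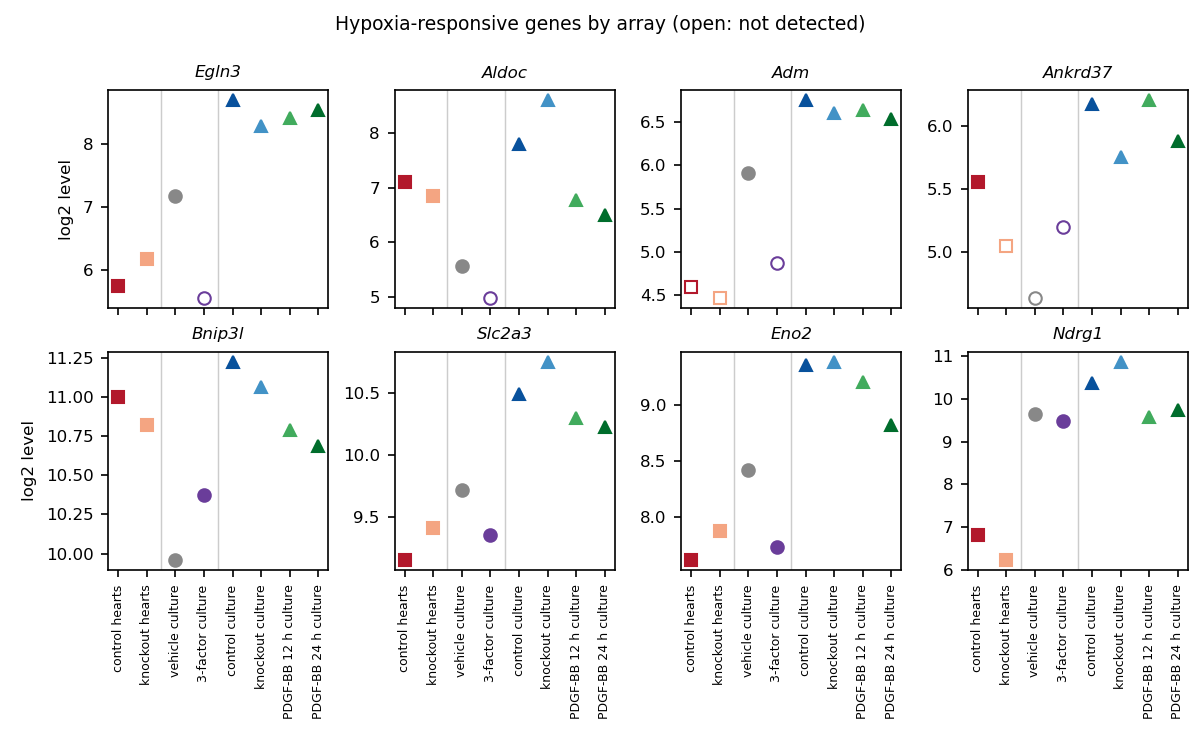
Log2 level of 8 hypoxia-responsive genes on the 8 arrays, set 1 to the left of the second grey line and set 2 to its right, each panel with its own axis and open symbols where the gene was not detected. Egln3, Adm, Slc2a3 and Eno2 were lower in both set 1 cultures than in any set 2 culture, and Aldoc was lowest in the 3-factor and vehicle cultures.

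Loss of the PDGF receptors in the epicardium was followed in whole hearts. In knockout against control hearts no gene of the 28 measured differed by 1 or more, where 0.64% of all 8905 measured genes did. Above 0 lay 14 of the measured genes, and 14 lay below, with a median of -0.01 against a value near 0 for all genes. The widest differences were 0.66 for Hk1, from 7.85 to 8.51, and -0.59 for Ndrg1, from 6.81 to 6.22. Egln3 had 0.43 and Egln1 0.40. In all, 5 of the 6 measured HIF targets lay below 0, with a median of -0.25, among them Vegfa at -0.33 and the carbonic anhydrase gene Car9 at -0.51, which was detected in control hearts alone. Of 27 further HIF targets 16 lay below 0 and 11 above, with a median of -0.05. Of all measured genes 50% lay below 0. Macrophage markers lay below 0 in 11 of 13, with a median of -0.25, and erythroid markers above 0 in 8 of 10, with a median of 0.29. The part of either in the HIF targets was not tested, and none of the further pathway genes passed the rule.

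In the knockout culture, none of 27 measured genes passed the rule against the control culture, where 4.19% of all 9765 measured genes did. The 27 genes had a median of -0.02. Closest to the rule was Pfkp, from 8.76 to 7.82 (-0.94), and its second probe went further, from 6.69 to 5.30 (-1.39). Next came Aldoc at 0.80, P4ha1 at -0.72 and Car9, which had 5.69 in the control and 6.38 in the knockout culture. Knockout levels of Ndrg1 (10.87), Aldoc (8.62), Slc2a3 (10.75) and Car9 were higher than on any other array.

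For the listed genes, the result differed with the baseline. The vehicle culture is in the other array set, so baseline and array set cannot be told apart here. Against the vehicle culture 8 genes were higher and 1 was lower of 28 measured, where 14.8% of all 9667 genes passed, 9.01% higher and 5.81% lower. Aldoc differed by 3.05, Ndrg1 by 1.22, Egln3 by 1.12 and Bnip3l by 1.11, Car9 was at least 1.95-fold higher, and Hk1 was at least 1.42-fold lower. The second Hk1 probe did not follow, with 5.17 in the knockout and 5.05 in the vehicle culture. None of these 28 genes lay at least 1 outside both cultures without growth factors, which 1.28% of 9988 genes did above and 1.13% below. Among the further HIF targets, Angptl4 rose by 1.90 against the control culture, and Cxcr4, a chemokine receptor, by 1.32. Ccng2 was at least 3.25-fold lower and Stc1 fell by 1.51, and in all 2 rose and 3 fell of 28 measured. The dehydrogenase kinase Pdk4 rose by 1.01, and none of 15 further glycolysis genes, 10 HIF pathway genes and 5 pentose phosphate genes passed. Against the vehicle culture Angptl4 and Stc1 turned their sign without passing, at 10.07 against 10.44 and 9.39 against 9.08. Ccng2, not detected in the knockout culture, did not pass there either, with 5.59 in the vehicle culture. Cxcr4 (at least 2.95-fold higher) and Pdk4 (1.17) passed against the vehicle culture as well. Stc2, another of the further HIF targets, fell by 1.06 against the control culture and by 1.74 against the vehicle culture. Macrophage markers were higher in the knockout culture than in the control culture, 14 of 17 above 0 and 4 past the rule, with a summed log2 level of 16.97 against 16.48. Of 16 cardiomyocyte markers 7 were lower and 1 higher (median -0.76), 3 of 5 erythroid markers were lower (median -1.12), and 16 of 19 cell cycle genes lay below 0 with none past the rule (median -0.52). The part of any of these in the gene levels was not tested.

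PDGF-BB alone was compared with the control culture of the same array set. At 12 h 1 of 28 measured genes fell, and none rose, where 0.568% of all 9689 genes passed, 0.258% higher and 0.31% lower. At 24 h 1 of 28 fell and none rose, where 1.23% of all 9698 genes passed, 0.412% higher and 0.815% lower. The gene was Aldoc at both times, by 1.04 at 12 h and 1.31 at 24 h. Its 12 h difference did not reach the rule without background correction (-0.85), with the authors' processed values (-0.87) or with an offset of 50 (-0.85). Against the vehicle culture its sign turned, to 1.21 and 0.93, since the vehicle level lay below both. All other measured genes differed from the control culture by less than 1. Pfkp had 0.43 and 0.58, and Ndrg1 -0.79 and -0.62. Eno2 had -0.16 and -0.54. Medians over the genes were 0.02 at both times, and between 24 h and 12 h none of 28 genes passed, where 0.366% of 9553 genes did.

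The vehicle culture lies in the other array set. Against it, 4 of 28 genes were higher at 12 h and 5 at 24 h, with none lower. The rule was passed by 6.95% and 5.89% of all genes. Of all genes 4.57% were higher and 2.38% lower at 12 h, and 3.88% were higher and 2.02% lower at 24 h. Egln3 differed by 1.25 and 1.37 and Eno1b by 1.09 and 1.41, while Ankrd37 was at least 1.73-fold and 1.39-fold higher. The 4 comparisons share the PDGF-BB arrays, and no gene of the list lay at least 1 outside both baselines. Of all genes 0.141% lay above and 0.0101% below in that way at 12 h, and 0.0202% above and 0.0505% below at 24 h. Of 28 further HIF targets none passed at 12 h against the control culture, and at 24 h Angptl4 (1.46) and the EGF receptor inhibitor gene Errfi1 (1.31) rose and Ccng2 fell by 1.13. These 3 calls hold against the control culture alone. In the vehicle culture Angptl4 lay at 10.44, above its 9.62 with PDGF-BB at 24 h, Errfi1 at 10.77 against 11.23 and Ccng2 at 5.59 against 5.83, and none passed there. At 12 h Angptl4 was lower than in the vehicle culture (-1.31). None of the further glycolysis, pyruvate, pentose phosphate and HIF pathway genes passed at either time. At 24 h 3 of 5 erythroid markers were higher than in the control culture, with a summed log2 level of 12.13 against 10.69, and their part was not tested.

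**Figure D3:**
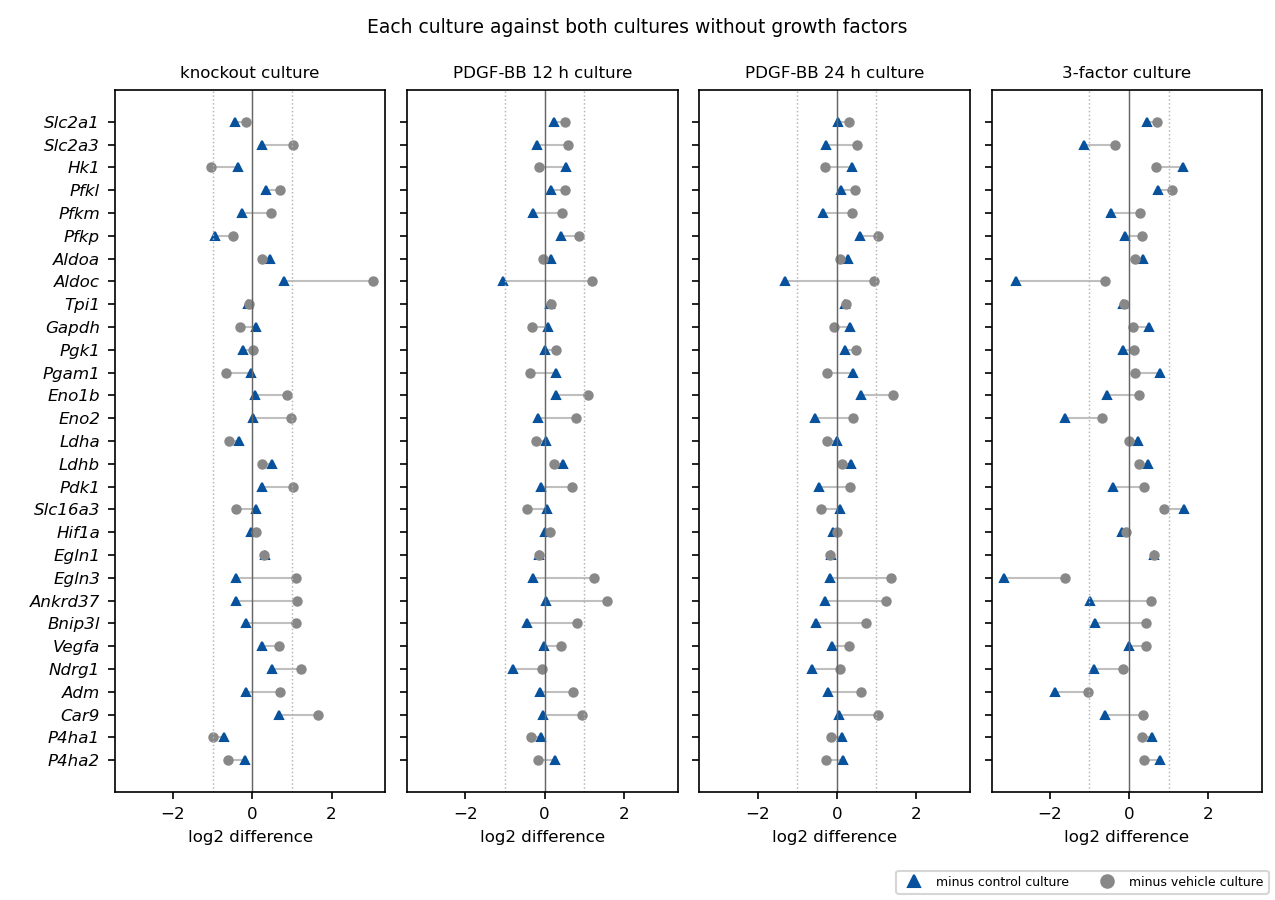
Log2 difference of each of the 29 detected genes from the control culture (triangles) and from the vehicle culture (circles) in the knockout, PDGF-BB and 3-factor cultures, with dotted lines at -1 and 1. In the first 3 panels no gene has both marks outside the same dotted line, and in the 3-factor panel Egln3 and Adm have both below -1.

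The 3 factors were compared with the vehicle culture, which shares their array set and their 2 days of treatment. Egln3 and Adm fell and Pfkl rose, so 1 gene was higher and 2 lower of 26 measured, where 10.4% of all 9178 genes passed, 5.32% higher and 5.07% lower. Egln3 went from 7.18 to a level without detection, at least 3.05-fold lower, and was also at least 8.79-fold lower than in the control culture. Adm had 4.59 and 4.47 without detection in hearts, 6.75 and 6.60 in the control and knockout cultures, 6.64 and 6.53 with PDGF-BB for 12 h and 24 h, 5.91 in the vehicle culture and 4.87 without detection in the 3-factor culture. It was at least 1.27-fold lower than in the vehicle culture and at least 2.27-fold lower than in the control culture. These 2 genes were the only ones of the list at least 1 below both cultures without growth factors, which 2.99% of 9899 genes were, and none was at least 1 above both, which 2.5% of genes were. Both genes lay lower in the vehicle than in the control culture, so the control comparison could not fail once the vehicle comparison passed. The control culture is also in the other array set, and both genes passed the set term. Adm did not reach 1 in 5 of the alternative settings, among them the authors' processed values (-0.50).

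Pfkl rose by 1.09, but its dim second probe had 5.84 on both arrays, and the mean over its detected probes gave 0.55. In the limma fit with both cultures without growth factors as a group of 2, none of the 10719 genes passed an adjusted p of 0.05 for the 3 factors, while 734 had an unadjusted p under 0.05. Of those, 3 were listed genes. Egln3 had -2.40 ± 0.70 (unadjusted p = 0.0193, adjusted p = 0.565), Adm -1.46 ± 0.49 (unadjusted p = 0.0313, adjusted p = 0.656) and Slc16a3 1.14 ± 0.41 (unadjusted p = 0.0390, adjusted p = 0.686). The pair leaves 1 residual degree of freedom. For the knockout culture and PDGF-BB at 12 h and 24 h no gene passed either, with 361, 23 and 18 genes under an unadjusted p of 0.05 and none of the list among them.

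Other listed genes moved less with the 3 factors. Glucose transporter Slc2a1 had 0.71, Hk1 0.68 and Egln1 0.62, all below the rule. Slc16a3 had 0.89 and was detected in the 3-factor culture alone, at least 1.39-fold above the vehicle culture's limit. Eno2 had -0.69 and Slc2a3 -0.36, and their levels of 7.73 and 9.35 lay between those of the 2 hearts. Vegfa had 0.42, and its second probe, at 8.80 in the vehicle and 9.40 in the 3-factor culture, had 0.60. The 2 Vegfa probes disagreed between the cultures without growth factors, with -0.44 and 0.82 for vehicle minus control. Collagen hydroxylases P4ha1 and P4ha2 had 0.32 and 0.37. The median of the 26 genes was 0.20, with 17 above 0 and 9 below, against a value near 0 for all genes. Against the control culture, from the other array set, 2 of 28 were higher and 5 lower, with a median of -0.15. Of all 9746 genes 16.9% passed (6.67% higher, 10.2% lower). Slc2a3 (-1.14), Eno2 (-1.63) and Aldoc (at least 4.75-fold lower) joined Egln3 and Adm there, with Slc16a3 (at least 1.65-fold) and Hk1 higher. All of these but Hk1 also passed the set term, and array set and treatment cannot be told apart in this pair. The brightest Hk1 probe had 6.45 with the 3 factors and was not detected in the control culture, but its second probe had 5.31 and 5.38.

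Against PDGF-BB at 24 h, from the other array set, the 3-factor culture had 1 gene higher and 5 lower of 29 measured, where 13.9% of all 9507 genes passed, 6.06% higher and 7.82% lower. Egln3 was at least 7.87-fold lower, Adm at least 1.95-fold and Aldoc at least 1.91-fold. Eno1b fell by 1.17 and Eno2 by 1.09, and Slc16a3 was at least 1.52-fold higher.

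Further HIF targets moved both ways with the 3 factors against vehicle, 4 up and 3 down of 29 measured. Stc1 had 8.07 and 8.06 in control and knockout hearts, 10.90 and 9.39 in the control and knockout cultures, 11.07 and 10.84 with PDGF-BB for 12 h and 24 h, 9.08 in the vehicle culture and no detection in the 3-factor culture, where it was at least 11.4-fold lower than with vehicle. Ppp1r3c, which targets a phosphatase to glycogen, fell by 2.89. The placental growth factor gene Pgf rose by 1.68 and the repressor gene Bhlhe40 by 1.43. Of 15 further glycolysis genes 2 rose and 1 fell. Pfkfb4, whose product sets the level of an activator of phosphofructokinase, rose by 1.39, the liver glycogen phosphorylase Pygl by 1.19, and Pgam2 fell by 1.56. Among 7 pyruvate genes Pdk4 rose by 1.07 and Pdk3 fell by 1.22, and none of 8 HIF pathway genes and 4 pentose phosphate genes passed. Against the control culture of the other array set, Stc1 (at least 40.4-fold lower), Ppp1r3c (-3.49), Pgf (at least 4.03-fold higher) and Pgam2 (-1.67) passed in the same direction. Bhlhe40, Pfkfb4, Pdk4 and Pdk3 did not pass there, and Pygl turned its sign without passing, at 8.58 against 8.76. With the 3 factors against vehicle, 8 of 13 epicardial markers and 4 of 5 erythroid markers fell, and 6 of 16 macrophage markers rose. Their part in the gene levels was not tested.

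**Figure D4:**
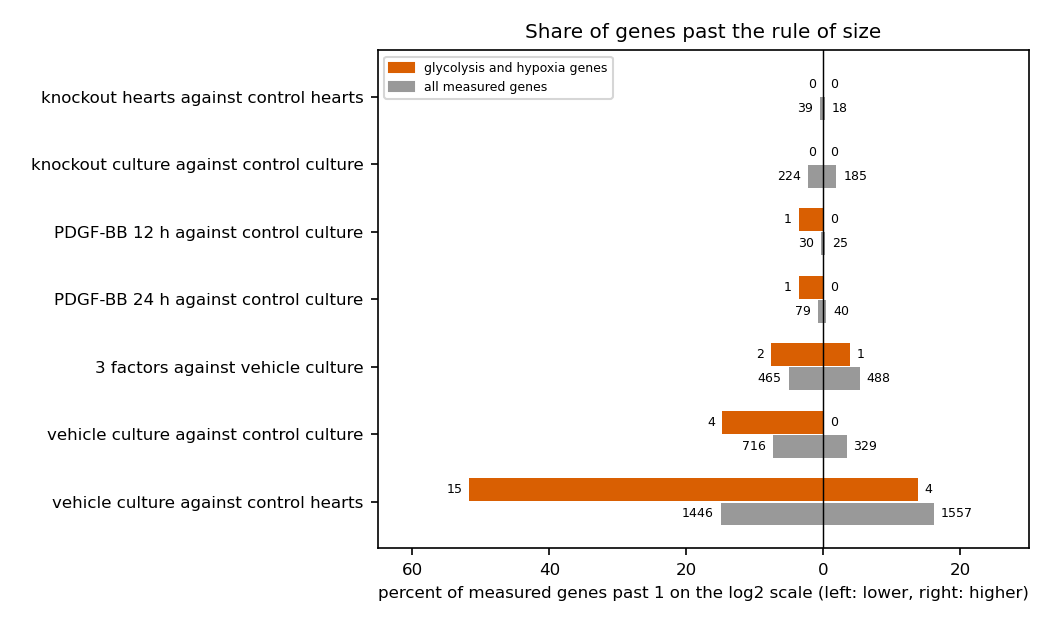
Percent of measured genes past the rule of size, lower to the left and higher to the right, for the listed genes (orange) and for all measured genes (grey) in 7 comparisons of 2 arrays, with the number of genes beside each bar. The vehicle culture against control hearts has 15 listed genes lower and 4 higher, and both knockout comparisons have none.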

How the data were processed

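The authors labelled RNA with a TotalPrep kit for Illumina mouse arrays, per the labels' protocols. The deposited non-normalized intensity and detection p-value of each of 45281 probes came from BeadStudio 3.3, per the submitters' processing notes. A second deposited table of the authors held processed linear intensity values, identical in distribution within each of 2 sets of 4 arrays, and served as an alternative. Detection p was under 0.01 for 14557 to 16661 probes of an array (32.15% to 36.79%). The number of arrays limits the precision.

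Background correction used neqc of limma 3.58.1 in R 4.3.3 (offset 16, background inferred from the detection p-values, quantile normalization over all 8 arrays), and levels are on the log2 scale, whereas the deposited values are linear. GEO's platform annotation named 1 gene for 34885 probes, several for 18 and none for 10378. A gene took its probe with the highest mean non-normalized intensity. Where no probe of a gene was detected on the dimmer array, "at least N-fold" is the brighter level over the higher of the gene's own level and the lowest level of a detected probe there.

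Groups were taken from the labels and held 1 array each, so 2 arrays could not be tested against each other. Limma was fitted over the 10719 detected genes with both cultures without growth factors as a group of 2, and p-values were adjusted by Benjamini-Hochberg over all genes. A fit of hearts against cultures, with and without array set, was added after seeing the data. With array set as a term, its gap is between the hearts and the 2 set 1 cultures. Genes and lists were chosen with earlier results of these data known. Named genes are all listed genes, up to 4 called genes per further pathway list and comparison with the largest difference, Pdgfra, Pdgfrb and Tpm1. The further glycolysis genes that rose in the vehicle culture against control hearts are named as well. The method was tested on simulated arrays with planted differences. These had independent noise, below the spread between the cultures without growth factors, and no difference between array sets. That setting is simpler than these data. Alternatives were no background correction, an offset of 50, median centring, normalization within each set, a detection p of 0.05, the mean over all detected probes, the authors' values and the other culture without growth factors. Python 3.11.15 with numpy 2.4.6, pandas 2.3.3, scipy 1.17.1 and matplotlib 3.10.9 was used for summaries and figures. RefSeq sequences are from the GRCm38.p6 table.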

Additional observations from a re-analysis of the deposited data

How the results depend on the processing

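No group had a replicate, so no array could be left out. No paired analysis was possible because the groups share only the number 1, with a single array each. Of 176 counts and medians under alternative settings 158 stayed within the stated limits, and of 212 calls of single genes 187 kept their direction and the rule of size. With the other culture without growth factors as the baseline, the knockout culture gave 9 called genes and a median of 0.38, PDGF-BB gave 4 at 12 h with a median of 0.43 and 5 at 24 h, and the 3 factors gave 7 with a median of -0.15. That baseline also turned Aldoc to 1.21 at 12 h and 0.93 at 24 h of PDGF-BB, and in culture against control hearts Aldoc to 0.71 and Bnip3l to 0.23. With the mean over all detected probes, 1 gene passed in the knockout culture. At 12 h of PDGF-BB 0 genes passed without background correction, with the authors' values and with an offset of 50. The median of the vehicle culture against control hearts was -0.69 without background correction, -0.70 with the authors' values and -0.69 with an offset of 50. Under median centring limma passed 5 genes in the knockout culture, 101 with the 3 factors and 1649 between control hearts and the cultures without growth factors, against 0, 0 and 972 under quantile normalization. With an offset of 50 it passed 3 listed genes in the last of these, against 6. The cause of the other changes was not tested. Adm with the 3 factors had -0.50 to -0.90 under the 5 settings that ended its call, and Ankrd37 between the cultures without growth factors -0.93 without background correction and -0.85 with an offset of 50. Dim genes such as Adm, Ankrd37, Car9 and Slc16a3 lie near the detection limit, which limits what their differences show.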
